A study of Mus musculus with 20 samples.

Results

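Imiquimod-treated skin of mice on a high fat diet was compared with that of mice on control chow, gene by gene. Imiquimod is an agonist of Toll-like receptor Tlr7, and its cream gives mouse skin an inflammation that resembles psoriasis. The compared arrays were the 5 labelled HFD-IMQ and the 5 labelled CD-IMQ, out of 20 in the series, chosen by the sample titles. All mice were C57/B6 animals aged 9 weeks from a specific pathogen-free facility, and each array held the abdominal skin of 1 mouse. CD-IMQ mice ate control chow and HFD-IMQ mice a high fat diet. Both received 62.5 mg of 5% imiquimod cream (Aldara) daily for 5 days on shaved skin and were killed 24 h after the last dose. The CD-vehicle and HFD-vehicle groups, of 5 mice each, ate the same diets and received vehicle in place of the cream. No source used here gives the fat content of the diet, how long it was fed, or the animals' sex and weights. Values are log2 array intensities of 22180 genes, each read from 1 array feature: of those annotated with that symbol alone, the one brightest on average across all 20 arrays.

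The arrays carried the keratinocyte genes of skin. Krt14, the keratin of basal keratinocytes, ranged from 9.80 to 10.34 in CD-IMQ and from 9.60 to 10.51 in HFD-IMQ skin, and the suprabasal keratin Krt10 from 11.46 to 12.02 and from 11.62 to 12.04. S100a8, a neutrophil and keratinocyte alarmin that imiquimod induces, lay between 9.16 and 10.04 on all 10 imiquimod arrays and at most at 6.32 on the 10 vehicle arrays. Markers of fat under the skin varied between arrays. Ucp1, the uncoupling protein of brown and beige fat, read 7.16 on CD-IMQ replicate 2, 8.14 on HFD-IMQ replicate 3 and 9.58 on HFD-IMQ replicate 4, and at most 3.18 on the other imiquimod arrays. The mean of the adipocyte markers Adipoq, Plin1 and Lep was highest on HFD-IMQ replicate 4, at 7.71, against a range of 5.32 to 7.30 in CD-IMQ and of 5.56 to 6.41 on the other HFD-IMQ arrays. HFD-IMQ replicate 4 also stood farthest from its group, with 30.0% of the group's squared distances from the mean. In whole skin, fewer cells of a type and less RNA per cell cannot be told apart.

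The skin makes fat in its sebaceous glands and its adipocytes from acetyl units, through ATP-citrate lyase, acetyl-CoA carboxylase, fatty acid synthase and the stearoyl-CoA desaturases. When fatty acids are plentiful, tissues can turn instead to burning them, and nuclear receptors of the PPAR family then switch on genes such as Pdk4 and Angptl4. The epidermis answers injury and imiquimod with alarmins, wound keratins and small proline-rich (SPRR) proteins of the cornified envelope, the cross-linked shell of its outermost cells.

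No gene passed the test between the diets in imiquimod-treated skin. Of 22180 genes 0 were called (0.0%) at an adjusted p below 0.05 (limma fitted to all 20 arrays, Benjamini-Hochberg). The nearest was Usp17ld, at an adjusted p of 0.0510. At an unadjusted p below 0.05, 1306 genes were higher in HFD-IMQ (5.89%) and 983 lower (4.43%). Together these were 10.3% of genes, where 5% is expected if no gene differs. The 5 arrays of HFD-IMQ all lay above the 5 of CD-IMQ for 220 genes (0.992%) and all below for 150 (0.676%). The higher share among genes at an unadjusted p below 0.05 depended on the scaling: 57.1% as deposited, 70.3% (1692 higher, 714 lower) with arrays centred on their medians and 49.6% (934 higher, 951 lower) with quantile normalization applied once more. Differences were small: 33 genes differed by at least 1 log2 unit, 17 of them higher and 16 lower, and the 95% interval of the difference lay within 1 log2 unit either way for 98.2% of genes.

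How many genes were called depended most on HFD-IMQ replicate 4. Without it, 13 genes were higher and 7 lower at an adjusted p below 0.05, among them C1qtnf3, Pdk4, Sprr2f, Sprr2g, Lox and Clec4e (higher) and Fasn, Me1, Acss2 and Scd1 (lower). Leaving out any other single array gave 0 to 3 calls, and 0 for 7 of the 20 arrays. Without CD-IMQ replicate 4, 807 genes were higher and 747 lower at an unadjusted p below 0.05. Limma on the imiquimod arrays alone called 0 genes, with a smallest adjusted p of 0.134. Taking the mean of Adipoq, Plin1 and Lep as a covariate, an alternative chosen after seeing the data, gave 5 genes higher and 12 lower, with Pdk4, C1qtnf3 and Clec4e among the higher and Fasn, Me1, Acss2, Scd1 and Acly among the lower. Without the 3 arrays high in Ucp1, also chosen after seeing the data, 2 genes were called, C1qtnf3 and Pdk4, both higher.

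Genes of fat synthesis had lower means in HFD-IMQ skin, none of them past the test. The list of de novo lipogenesis genes and desaturases had 20 measured members, 18 of them with a lower mean in HFD-IMQ and 0 called. The list held 9 genes lower at an unadjusted p below 0.05, against 4.43% of all genes. Its median difference was -0.54 log2 units, against -0.00 over all genes and 0.08 over the 9635 genes with a mean log2 value of at least 4. Leaving out 1 array moved the median between -0.70 (without HFD-IMQ replicate 4) and -0.39 (without HFD-IMQ replicate 5).

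Fasn, fatty acid synthase, read 10.38, 11.03, 9.67, 9.70 and 10.07 on CD-IMQ replicates 1 to 5 and 7.22, 9.33, 8.80, 10.50 and 7.34 on HFD-IMQ replicates 1 to 5. Thus 4 of 5 HFD-IMQ arrays lay below every CD-IMQ array, and HFD-IMQ replicate 4, the array richest in adipocyte markers, lay among the CD-IMQ values. The difference was -1.53 (SE 0.44, 95% interval -2.45 to -0.62, n = 5 per group, adjusted p = 0.288), a 2.9-fold lower level. Here and throughout, SE and interval rest on the spread pooled over all 20 arrays, not on that of the compared groups alone. Without HFD-IMQ replicate 4 the Fasn difference was -2.0 (adjusted p = 0.0395), and with the adipocyte covariate -1.83 (adjusted p = 0.0249).

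Acly, the ATP-citrate lyase that supplies cytosolic acetyl-CoA, read 9.39, 9.96, 8.59, 8.31 and 8.92 in CD-IMQ and 7.77, 8.20, 7.62, 8.61 and 7.63 in HFD-IMQ. Again only HFD-IMQ replicate 4 of its group reached into the CD-IMQ range. The difference was -1.06 (SE 0.28, adjusted p = 0.265). Acss2, which makes acetyl-CoA from acetate, differed by -1.17 (SE 0.34, adjusted p = 0.294), Me1, the malic enzyme that supplies NADPH, by -1.05 (SE 0.32, adjusted p = 0.306) and Slc25a1, the mitochondrial citrate carrier, by -1.0 (SE 0.35, adjusted p = 0.359). Slc25a1 is in none of the lists and was named because it was called with the adipocyte covariate. For each of these 3 genes 4 of 5 HFD-IMQ arrays lay below the lowest CD-IMQ array.

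The desaturase Scd1 read 10.92, 11.56, 10.72, 10.67 and 11.15 in CD-IMQ and 9.47, 10.60, 10.10, 11.40 and 9.57 in HFD-IMQ. HFD-IMQ replicates 1, 2, 3 and 5 were below all CD-IMQ arrays and replicate 4 was not. The difference was -0.78 (SE 0.26, adjusted p = 0.339), and without HFD-IMQ replicate 4 it was -1.07 (adjusted p = 0.0449). Scd3, a desaturase of sebaceous glands, differed by -0.93 (SE 0.34) and Elovl6, an elongase, by -0.76 (SE 0.24), neither of them called. Srebf1, which encodes the SREBP-1 transcription factor that drives lipogenic genes, differed by -0.21 (SE 0.22, 95% interval -0.67 to 0.24). Of the 20 lipogenic genes 17 had their highest HFD-IMQ value on replicate 4.

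**Figure D1:**
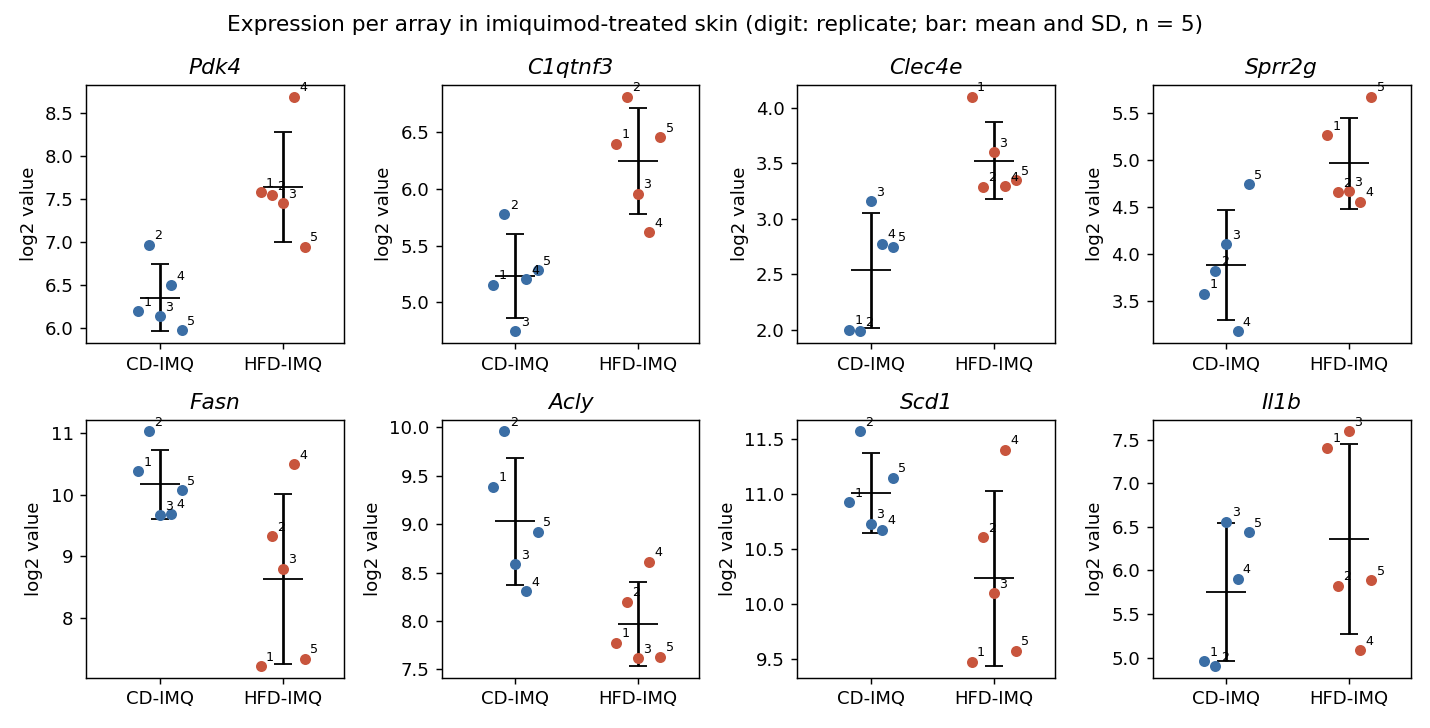
Log2 value (y axis) of 8 genes on each of the 5 CD-IMQ (blue) and 5 HFD-IMQ (red) arrays, each dot marked with its replicate number, with the group mean and SD as a bar. Fasn, Acly and Scd1 have 4 of 5 HFD-IMQ arrays below all CD-IMQ arrays, Clec4e separates the groups, and for Il1b the groups overlap.

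Sebaceous glands and adipocytes are the fat-bearing tissues of skin. The sebaceous gland list had a lower mean in HFD-IMQ for 15 of 17 members, with a median of -0.34 and 0 called. Without HFD-IMQ replicate 4 that median was -0.52. Its mean level ranged from 5.92 to 6.15 in CD-IMQ and from 5.39 to 6.01 in HFD-IMQ, so that the groups overlapped by 1 HFD-IMQ array, replicate 4. Awat1, a wax synthase, differed by -1.14 (SE 0.44), Elovl3, an elongase of very long chains, by -0.94 (SE 0.34) and Far2, a fatty acyl reductase, by -0.80 (SE 0.32). The adipocyte list went the other way, with 17 of 25 members higher and a median of 0.21, which was -0.05 without HFD-IMQ replicate 4 and 0.39 without CD-IMQ replicate 2. Its mean level ranged from 6.53 to 8.20 in CD-IMQ and from 6.47 to 8.67 in HFD-IMQ, and none of the 3 adipocyte markers in the covariate was near the background. The part of sebaceous and adipose tissue in the lipogenic differences was not tested. Cholesterol synthesis and uptake genes had a median of -0.20, with 15 of 19 members lower. Abca1, the cholesterol exporter, was higher on all 5 HFD-IMQ arrays than on any CD-IMQ array, with a difference of 0.33 (SE 0.11, adjusted p = 0.329).

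**Figure D2:**
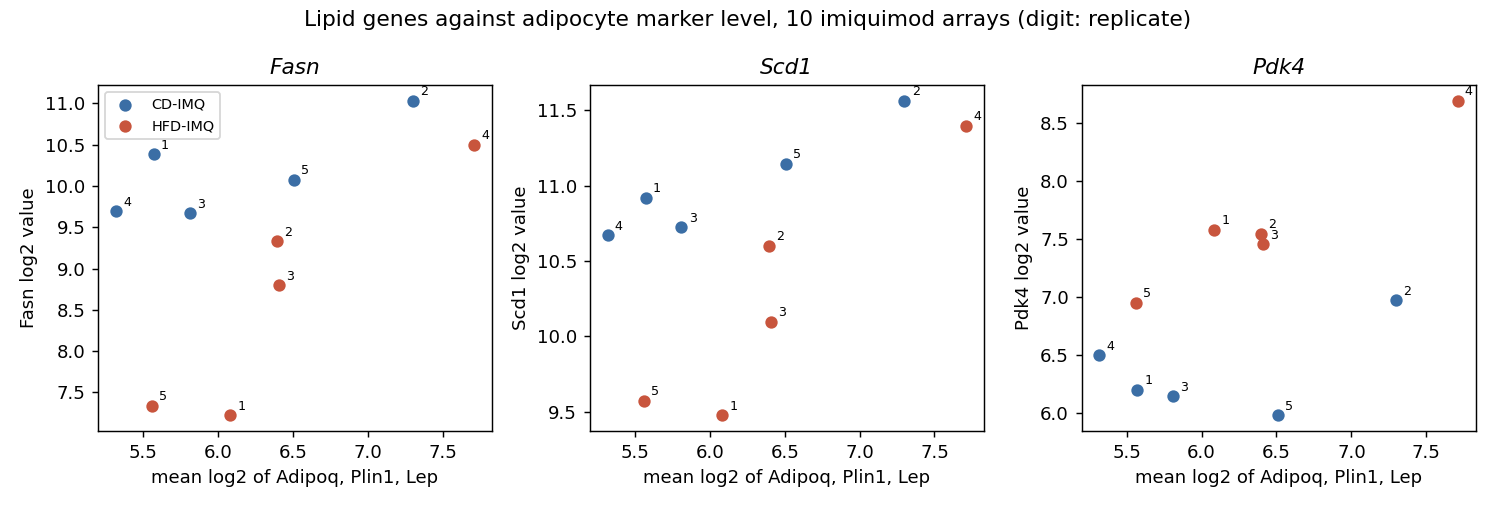
Log2 values of Fasn, Scd1 and Pdk4 (y axes) against the mean log2 value of Adipoq, Plin1 and Lep (x axes) on the 10 imiquimod arrays, CD-IMQ in blue and HFD-IMQ in red, with replicate numbers. HFD-IMQ replicate 4 lies at 7.71 on the x axis, beside CD-IMQ replicate 2 at 7.30, and has the highest Fasn, Scd1 and Pdk4 values of its group.

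Some lipogenic genes fell with the diet in skin without imiquimod. In vehicle-treated skin, which shares no array with this comparison, 271 genes rose (1.22%) and 212 fell (0.956%) with the high fat diet at an adjusted p below 0.05. Of the 20 lipogenic genes 4 were among those that fell: Fasn by 1.85, Acaca by 1.64, Acss2 by 1.38 and Me1 by 1.21. In imiquimod-treated skin the same 4 genes differed by -1.53, -0.71, -1.17 and -1.05. The diet difference in imiquimod skin minus that in vehicle skin was 0.32 (SE 0.62, adjusted p = 0.856) for Fasn, 0.21 (SE 0.48) for Acss2, 0.15 (SE 0.45) for Me1 and 0.93 (SE 0.55, adjusted p = 0.425) for Acaca, none of them past the test. In both treatments 16 of the 20 genes had a lower mean with the high fat diet. In imiquimod skin alone, 50.3% of all genes had a lower mean.

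Fatty acid oxidation genes and PPAR targets had mostly higher means, none past the test, with Pdk4 nearest to it. Pdk4, a pyruvate dehydrogenase kinase, read 6.20, 6.97, 6.14, 6.50 and 5.98 in CD-IMQ and 7.58, 7.55, 7.46, 8.69 and 6.95 in HFD-IMQ. Of the HFD-IMQ arrays 4 were above every CD-IMQ array, and replicate 5 lay just under CD-IMQ replicate 2. The difference was 1.29 (SE 0.23, 95% interval 0.81 to 1.76, adjusted p = 0.0827), a 2.44-fold higher level and the smallest p among the named genes that were higher. It was 1.03 without HFD-IMQ replicate 4 (adjusted p = 0.0355) and 1.15 with the adipocyte covariate (adjusted p = 0.0249). Without the 3 arrays high in Ucp1 it was 1.15 (adjusted p = 0.0343). With limma on the imiquimod arrays alone adjusted p was 0.378. As each array was left out, adjusted p ranged from 0.0288 (without CD-IMQ replicate 2) to 0.258 (without HFD-IMQ replicate 1). In vehicle skin the Pdk4 difference was 0.26 (SE 0.23, adjusted p = 0.670), and the difference between the treatments was 1.02 (SE 0.32, adjusted p = 0.119).

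Angptl4, a secreted inhibitor of lipoprotein lipase, read 5.05, 6.64, 6.0, 5.73 and 5.50 in CD-IMQ and 6.95, 6.62, 7.08, 7.88 and 6.33 in HFD-IMQ. CD-IMQ replicate 2 reached the lower HFD-IMQ values. The difference was 1.18 (SE 0.30, adjusted p = 0.257). Acadl, an acyl-CoA dehydrogenase of the beta-oxidation cycle, differed by 0.65 (SE 0.26), Cpt1a, which brings long-chain fatty acids into mitochondria, by 0.12 (SE 0.15) and Ppara by 0.05 (SE 0.17). In the list as a whole 17 of 20 members had a higher mean in HFD-IMQ, with a median of 0.25, which was -0.01 without HFD-IMQ replicate 4.

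C1qtnf3 and Clec4e came next by p. C1qtnf3 encodes CTRP3, a secreted relative of adiponectin. It read 5.15, 5.77, 4.74, 5.20 and 5.28 in CD-IMQ and 6.40, 6.82, 5.96, 5.62 and 6.46 in HFD-IMQ, where only replicate 4 fell within the CD-IMQ range. The difference was 1.02 (SE 0.19, adjusted p = 0.142). With limma on the imiquimod arrays alone adjusted p was 0.378. As each array was left out, it ranged from 0.0291 (without HFD-IMQ replicate 4) to 0.416 (without HFD-IMQ replicate 1). Without the 3 arrays high in Ucp1, an alternative chosen after seeing the data, the difference was 1.46 (adjusted p = 0.000771). Those arrays held the highest CD-IMQ value, 5.77, and the lowest HFD-IMQ values, 5.96 and 5.62. Leaving them out thus favours a larger difference. In vehicle skin the C1qtnf3 difference was -0.67 (SE 0.19, adjusted p = 0.0725). The difference between the treatments passed the test, at 1.68 (SE 0.27, adjusted p = 0.00508). Clec4e, the lectin receptor Mincle of neutrophils and macrophages, read 2.0, 1.99, 3.16, 2.78 and 2.75 in CD-IMQ and 4.10, 3.29, 3.60, 3.29 and 3.35 in HFD-IMQ. The groups did not overlap. All CD-IMQ values and 3 of the 5 HFD-IMQ values lay below the array medians over genes, which were at least 3.54, so most of these readings were dim. The difference was 0.99 (SE 0.19, adjusted p = 0.161).

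The Sprr2 genes whose differences are given below had higher means in HFD-IMQ skin, none past the test. Sprr2 genes form a cluster of near-identical copies on chromosome 3, so that a feature of one may read its neighbours. The upstream sequences of 4 of the members with an entry in the RefSeq promoter table are shown. Their differences had the same sign, as had that of Sprr2h, which has an entry and is not shown. Each covers the 250 bases before the start site (GRCm38.p6, plus strand), at chr3:92316455-92316704 for Sprr2b, chr3:92338890-92339139 for Sprr2d, chr3:92351893-92352142 for Sprr2e and chr3:92364937-92365186 for Sprr2f. Capitals mark matches to the TATA box TATAAA, the CCAAT box CCAAT and the AP-1 site TGANTCA, on either strand. In Sprr2d and Sprr2e the CCAAT match, read as ATTGG, overlaps the last base of TATAAA.
Sprr2b: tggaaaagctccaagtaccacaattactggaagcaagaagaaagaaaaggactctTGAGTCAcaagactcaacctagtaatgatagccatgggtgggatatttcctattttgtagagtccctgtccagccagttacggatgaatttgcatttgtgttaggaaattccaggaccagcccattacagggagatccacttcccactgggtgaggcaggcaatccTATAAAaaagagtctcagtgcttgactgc
Sprr2d: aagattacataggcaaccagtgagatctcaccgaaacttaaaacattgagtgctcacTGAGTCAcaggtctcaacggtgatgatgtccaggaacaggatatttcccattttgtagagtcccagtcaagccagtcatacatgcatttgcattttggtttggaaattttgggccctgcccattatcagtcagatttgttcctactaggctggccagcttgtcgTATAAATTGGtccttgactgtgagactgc
Sprr2e: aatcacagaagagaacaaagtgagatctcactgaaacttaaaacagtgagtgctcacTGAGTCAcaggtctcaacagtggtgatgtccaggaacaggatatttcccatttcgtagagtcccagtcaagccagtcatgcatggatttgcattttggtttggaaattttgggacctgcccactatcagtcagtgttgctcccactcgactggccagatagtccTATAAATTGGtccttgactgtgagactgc
Sprr2f: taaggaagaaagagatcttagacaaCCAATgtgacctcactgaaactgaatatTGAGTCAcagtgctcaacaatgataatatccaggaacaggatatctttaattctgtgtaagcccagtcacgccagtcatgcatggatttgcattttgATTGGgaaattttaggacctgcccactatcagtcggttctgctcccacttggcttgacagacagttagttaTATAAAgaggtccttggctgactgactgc
All 4 sequences held TATAAA beginning 29 bases before the start site and an AP-1 match beginning 193 to 197 bases before it. Sprr2d and Sprr2e had the same base at 220 of the 250 places (88.0%), and Sprr2b and Sprr2f at 80 (32.0%, without gaps). Of the 10 Sprr2 promoters in the table, counted over 300 bases from 250 before to 50 after the start site, 7 held TATAAA and 7 an AP-1 match. They were the same 7 and include the 4 shown, while Sprr2a1, Sprr2a2 and Sprr2a3 held neither. Among all 27025 promoters 14.2% held TATAAA and 7.93% an AP-1 match.

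The list of SPRR and LCE3 genes had 16 of 18 members higher and 2 lower, the lowest at -0.82. Of the higher members 7 had an unadjusted p below 0.05, against 5.89% of all genes, and 0 were called. The list's median of 0.43 ranged from 0.35 to 0.57 as each array was left out. Sprr2e read 6.65, 6.07, 6.57, 6.53 and 7.34 in CD-IMQ and 8.08, 7.09, 8.01, 7.05 and 8.25 in HFD-IMQ, overlapping at CD-IMQ replicate 5. The difference was 1.06 (SE 0.29, adjusted p = 0.270). Sprr2g read 3.57, 3.82, 4.11, 3.17 and 4.74 in CD-IMQ and 5.26, 4.66, 4.67, 4.56 and 5.68 in HFD-IMQ, a difference of 1.08 (SE 0.22, adjusted p = 0.198). CD-IMQ replicate 5 was again the array that overlapped. Sprr2j-ps differed by 1.29 (SE 0.27, adjusted p = 0.198), Sprr2f by 0.89 (SE 0.19, adjusted p = 0.243), Sprr2h by 0.63 (SE 0.24), Sprr2d by 0.55 (SE 0.42) and Sprr2b by 0.41 (SE 0.34). Lce3a, a late cornified envelope gene of wounded epidermis, differed by 1.03 (SE 0.30, adjusted p = 0.288). For 11 of the 18 genes the lowest HFD-IMQ value was on replicate 4. Sprr1b differed by 0.46 (SE 0.21) in imiquimod skin but rose by 2.18 with the high fat diet in vehicle skin (adjusted p = 1.01e-05), and the difference between the treatments passed the test, at -1.72 (SE 0.29, adjusted p = 0.00916).

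Other epidermal lists had medians near 0. Terminal differentiation and barrier genes had a median of -0.05 over 36 genes, with Lce1m at -0.69 (SE 0.24), Flg2, a filaggrin relative, at -0.85 (SE 0.33) and Ivl, involucrin, at 0.17 (SE 0.29). Wound keratins had a median of 0.05 over 7 genes, basal keratinocyte genes 0.05 over 10 and cell cycle genes -0.01 over 33. Without HFD-IMQ replicate 4 the wound keratin median was 0.16 and the basal median 0.17, and without HFD-IMQ replicate 1 they were -0.01 and -0.04. Krt18 (-0.38, SE 0.15), Dst (0.36, SE 0.13) and the mitotic kinase Plk1 (-0.44, SE 0.15) had the smallest p of these 3 lists. Stefins and serpins had a median of 0.07 over 14 genes, led by Serpinb3d at 0.87 (SE 0.29), and the median was 0.13 without HFD-IMQ replicate 4 and 0.04 without CD-IMQ replicate 4.

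The genes by which imiquimod dermatitis is usually followed did not pass the test between the diets. They were followed in a set of 26 that also held the fat genes Fasn, Scd1, Fabp4, Lep and Adipoq. Fasn had the lowest adjusted p of the set, 0.288, and Scd1 the next. Among the others adjusted p ranged from 0.410 (Tlr7) to 0.999 (Il6). S100a8 read 9.16, 9.27, 9.56, 9.49 and 9.55 in CD-IMQ and 9.70, 9.55, 10.02, 9.17 and 10.04 in HFD-IMQ, a difference of 0.29 (SE 0.37, 95% interval -0.48 to 1.06). The arrays of the groups overlapped. Its partner S100a9 differed by 0.35 (95% interval -0.25 to 0.95), the wound keratin Krt16 by 0.42 (95% interval -0.45 to 1.29), Krt6b by 0.23 (95% interval -0.78 to 1.24) and the antimicrobial lipocalin Lcn2 by 0.20 (95% interval -0.16 to 0.57). Saa3, a serum amyloid of inflamed tissue, differed by 0.29 (95% interval -0.42 to 0.99), and the epidermal cytokine Il1f6 (IL-36 alpha) by 0.07 (95% interval -0.65 to 0.80). These intervals hold differences of either sign.

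Cytokines of the IL-23 and IL-17 axis, which drives the dermatitis, were dim on these arrays. Il17a differed by -0.05 (95% interval -0.40 to 0.31), Il17f by -0.21 (-0.49 to 0.06), Il22 by 0.18 (-0.08 to 0.44), Il23a by -0.01 (-0.26 to 0.23), Il6 by -0.00 (-0.28 to 0.28) and Tnf by 0.17 (-0.12 to 0.45). All but Il17f had a CD-IMQ mean under the array medians over genes. The chemokines Ccl20 and Cxcl1 differed by -0.13 (SE 0.18) and 0.01 (SE 0.18). Il1b, the inflammasome cytokine, read 4.96, 4.91, 6.56, 5.91 and 6.44 in CD-IMQ and 7.41, 5.83, 7.59, 5.08 and 5.89 in HFD-IMQ, with a difference of 0.61 (SE 0.43). The spread within each diet exceeded the difference between the diets. Il19 (0.64, SE 0.20), a cytokine of the IL-20 family, and Il1rn (0.46, SE 0.14), the IL-1 receptor antagonist, had the smallest p of the 2 cytokine lists. Tlr7, the receptor of imiquimod, differed by 0.40 (SE 0.17, adjusted p = 0.410), Krt77 by -0.79 (SE 0.39) and the proliferation marker Mki67 by 0.02 (SE 0.22).

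**Figure D3:**
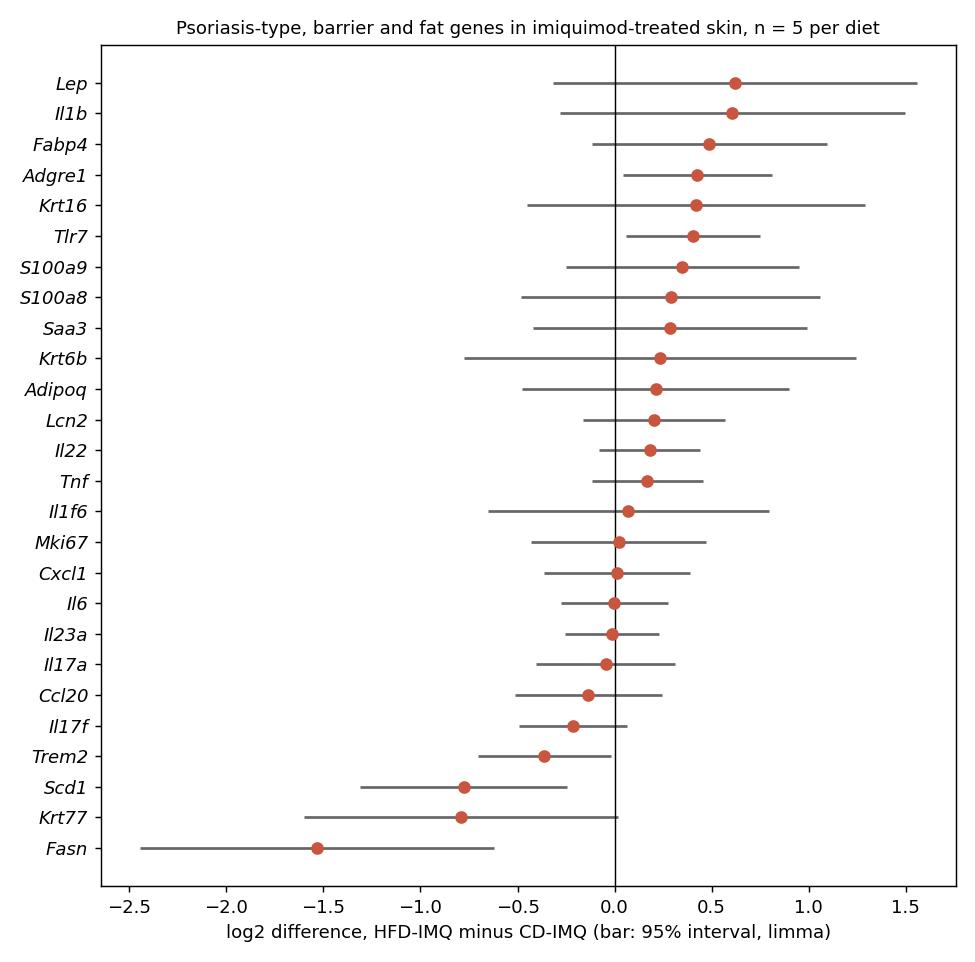
Log2 difference HFD-IMQ minus CD-IMQ (x axis) of 26 followed genes (rows), with 95% intervals from limma fitted to all 20 arrays, n = 5 per diet. Fasn at -1.53, Krt77 at -0.79 and Scd1 at -0.78 lie lowest, and the alarmins, wound keratins and cytokines have intervals that cross 0.

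Of 19 neutrophil genes 6 were higher at an unadjusted p below 0.05, against 5.89% of all genes, and 0 were called. Their median, 0.28, was the highest among the immune cell lists. Without HFD-IMQ replicate 4 that median was 0.01. The chemokine receptor Cxcr2 read 4.17, 4.68, 4.85, 5.01 and 4.44 in CD-IMQ and 5.71, 4.91, 5.22, 5.62 and 5.24 in HFD-IMQ, a difference of 0.71 (SE 0.18, adjusted p = 0.255). Its groups overlapped at HFD-IMQ replicate 2. Clec4d, the partner lectin of Clec4e, differed by 0.63 (SE 0.23) and the collagenase Mmp8 by 0.41 (SE 0.16). Macrophage and monocyte genes had a median of 0.10 over 25 genes (0.03 without HFD-IMQ replicate 1, 0.21 without HFD-IMQ replicate 3), with Aif1 at 0.45 (SE 0.17) and Adgre1, the F4/80 antigen, at 0.43 (SE 0.18). Trem2, a receptor of lipid-associated macrophages, differed by -0.36 (SE 0.17), in a list whose median was 0.13. Langerhans and dendritic cell genes had 12 of 15 members lower and a median of -0.11, with the migration receptor Ccr7 at -0.54 (SE 0.16). Type I interferon genes (0.03, led by Mx1 at 0.25), MHC class II and interferon gamma genes (-0.00, H2-Eb1 at -0.29), T and NK cell genes (0.00, Cd28 at -0.31), mast cell and eosinophil genes (0.05, Fcer1a at 0.27), B and plasma cell genes (-0.03, Cd79b at 0.48) and chemokines (0.02, Cxcl12 at 0.58) had medians near 0. Antimicrobial proteins had a median of 0.14, with Chil3, a chitinase-like protein of myeloid cells, at 0.87 (SE 0.23, adjusted p = 0.270).

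Vascular and matrix genes mostly had higher means in HFD-IMQ skin, none past the test. Endothelial genes had 20 of 22 members higher, 8 of them at an unadjusted p below 0.05, against 5.89% of all genes. Their median was 0.27 (0.23 to 0.35 as each array was left out). Flt1, a VEGF receptor, read 4.39, 4.38, 4.17, 4.14 and 4.27 in CD-IMQ and 4.79, 4.59, 4.65, 4.69 and 4.55 in HFD-IMQ. The groups did not overlap, and the difference was 0.39 (SE 0.11, adjusted p = 0.270). Pecam1 (CD31) differed by 0.46 (SE 0.15), also with no overlap, Emcn, endomucin, by 0.55 (SE 0.16) and Angpt2 by 0.51 (SE 0.16). Vegfa differed by 0.53 (SE 0.22) here and fell by 0.94 in vehicle skin (adjusted p = 0.0269), and the difference between the treatments passed the test, at 1.46 (SE 0.31, adjusted p = 0.0312). Fibroblast and matrix genes had 25 of 29 members higher and a median of 0.19, which was 0.12 without HFD-IMQ replicate 1 and 0.30 without HFD-IMQ replicate 4. Lox, the lysyl oxidase that cross-links collagen, read 6.30, 6.54, 5.89, 5.75 and 6.06 in CD-IMQ and 7.44, 6.96, 6.91, 6.08 and 6.94 in HFD-IMQ, a difference of 0.76 (SE 0.20, adjusted p = 0.266). HFD-IMQ replicate 4 was the array that overlapped, and without it the difference was 0.95 (adjusted p = 0.0395). These medians are read beside the 67.6% of genes with a mean of at least 4 that had a higher mean in HFD-IMQ, against 49.7% of all genes.

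**Figure D4:**
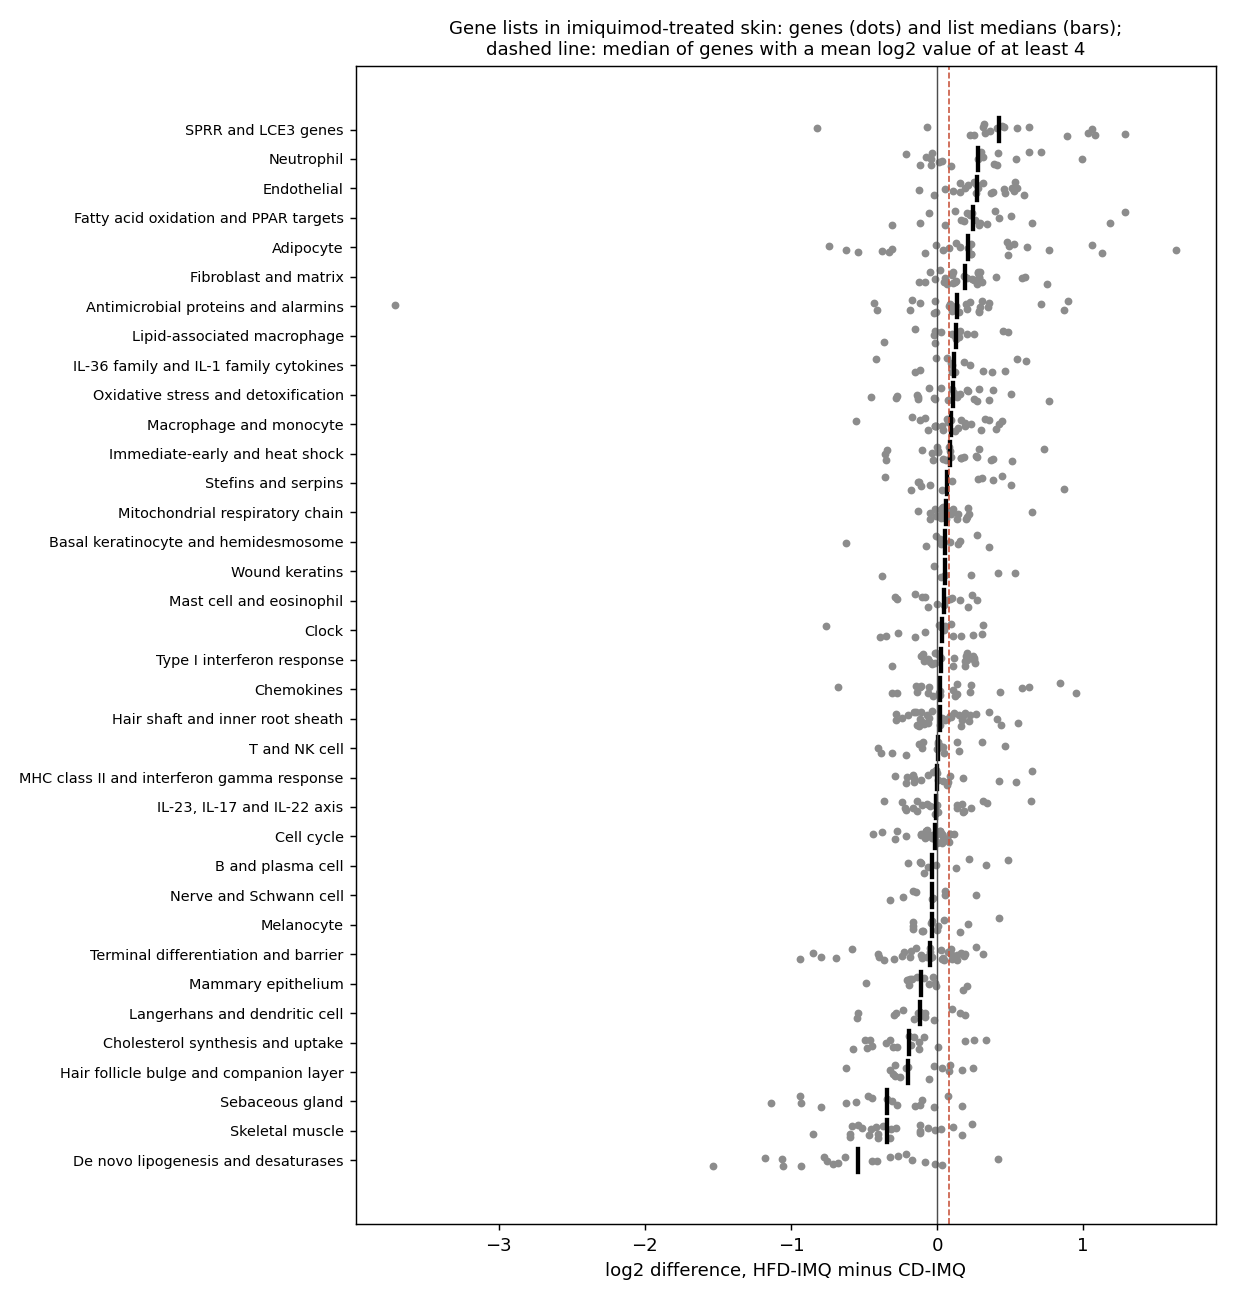
Log2 difference HFD-IMQ minus CD-IMQ (x axis) of every measured member (grey dots) of the gene lists with at least 7 members (rows), with list medians as black bars and the median of genes with a mean log2 value of at least 4 (0.08) as a dashed line. De novo lipogenesis is lowest at -0.54 and SPRR and LCE3 genes highest at 0.43.

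The 12 named genes with the smallest p in each direction are given by value, since none passed. The higher ones differed by 0.42 to 1.29. The groups did not overlap for 6 of the 12 higher and 11 of the 12 lower genes, against 0.992% and 0.676% of all genes, and the choice by p favours such genes. Besides those above they were Tmem38b (0.56, SE 0.11), Hoxa3 (0.42, SE 0.09), the phospholipid flippases Atp11b (0.62, SE 0.13) and Atp8b1 (0.58, SE 0.13), the serine protease Tmprss11g (1.22, SE 0.27) and Ppp1r21 (0.46, SE 0.10). Tmem38b, Atp8b1 and Ppp1r21 were lower, at -0.35, -0.42 and -0.35, with the high fat diet in vehicle skin without passing the test there (adjusted p = 0.0977, 0.0977 and 0.0839). The difference between the treatments passed for all 3: 0.91 (adjusted p = 0.00916), 1.0 (adjusted p = 0.0125) and 0.81 (adjusted p = 0.0122).

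Usp17ld, one of a family of near-identical deubiquitinase genes, led the lower ones. It read 6.03, 5.98, 6.26, 6.49 and 6.25 in CD-IMQ and 5.62, 5.32, 5.34, 5.08 and 5.50 in HFD-IMQ. Every HFD-IMQ array lay below every CD-IMQ array, and the difference was -0.83 (SE 0.13, adjusted p = 0.0510). With limma on the imiquimod arrays alone adjusted p was 0.134. As each array was left out, it ranged from 0.0149 (without HFD-vehicle replicate 5) to 0.189 (without HFD-IMQ replicate 2). In vehicle skin the Usp17ld difference was -0.03 (SE 0.13), and the difference between the treatments passed the test, at -0.80 (SE 0.19, adjusted p = 0.0461). The other 11 were Vxn (-0.49), Krtap5-3 (-0.78), Krt19 (-0.49), Tmem150c (-0.50), Zfp109 (-0.76), Apol10a (-0.50), Cyp3a57 (-0.80), Ripply1 (-0.49), Kif27 (-0.44), Gpr75 (-0.48) and Tac4 (-0.54). Of the 12 lower genes 10, and of the 12 higher genes 6, had their lower group mean at or under the highest of the array medians over genes, 3.65.

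Of these 24 genes 18 had an entry among the RefSeq promoters. Of the 18 promoters 6 held TATAAA (14.2% of all promoters), 7 CCAAT (37.9%), 2 the AP-1 match (7.93%), 4 the STAT pattern of TTC and GAA with 3 bases between (8.47%), 9 the NF-kB pattern of GGG and CC with 5 bases between (50.4%), 4 the GC box GGGCGG (35.9%) and 0 the E-box CACGTG (7.24%). Counts are over both strands and a match is a description only. The 250 bases before the start sites of Pdk4 (chr6:5496279-5496528, minus strand) and Fasn (chr11:120824548-120824797, minus strand) are shown. Pdk4 had the highest difference on the fatty acid oxidation list and Fasn the lowest on the lipogenesis list. Capitals mark the CCAAT box on either strand. It begins 131 bases before the start site in Pdk4, and 90, 62 and 59 bases before it in Fasn. The Fasn matches at 62 and 59 bases lie on opposite strands and overlap in the single stretch CCAATTGG.
Pdk4: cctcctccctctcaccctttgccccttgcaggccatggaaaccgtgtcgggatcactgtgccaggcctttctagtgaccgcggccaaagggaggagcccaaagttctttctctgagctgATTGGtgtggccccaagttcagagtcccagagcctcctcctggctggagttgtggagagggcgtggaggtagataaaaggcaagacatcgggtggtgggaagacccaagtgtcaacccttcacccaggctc
Fasn: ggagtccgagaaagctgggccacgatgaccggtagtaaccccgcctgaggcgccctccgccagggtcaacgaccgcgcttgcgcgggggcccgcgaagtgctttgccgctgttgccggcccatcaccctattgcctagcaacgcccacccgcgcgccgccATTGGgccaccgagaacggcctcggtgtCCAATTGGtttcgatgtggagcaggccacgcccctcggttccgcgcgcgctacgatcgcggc

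Genes that responded to the high fat diet in vehicle skin had median differences near 0 in imiquimod skin. They were chosen by their calls in vehicle skin, which favours larger differences there than in imiquimod skin. The 271 genes that rose in vehicle skin had a median difference of 0.96 there and of 0.05 in imiquimod skin, where 163 were higher and 108 lower. The 212 that fell had a median of -0.68 there and of 0.13 in imiquimod skin, where 50 were lower and 162 higher. These splits are read beside the 49.7% of all genes that had a higher mean in HFD-IMQ than in CD-IMQ. Among genes with a mean log2 value of at least 4 that share was 67.6%, with a median difference of 0.08. At an unadjusted p below 0.05 in imiquimod skin, 13 of the 271 were higher and 4 lower, and 12 of the 212 were lower and 30 higher. A test of the difference between the treatments called 147 genes, 105 with a more positive diet difference in imiquimod skin (0.473%) and 42 with a more negative one (0.189%). With arrays centred on their medians the split was 166 to 38, and with quantile normalization once more 69 to 51. The count was lowest, 57, without CD-IMQ replicate 4, and that of genes called in vehicle skin, 483, was lowest, 231, without CD-vehicle replicate 3.

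Immediate-early genes, the first genes transcribed after a stimulus, led the positive side. Of 24 genes on the immediate-early and heat shock list 12 fell with the high fat diet in vehicle skin, against 0.956% of all genes. In imiquimod skin 0 were called. The test between the treatments called 10, all more positive in imiquimod skin, against 0.473% of all genes. The list was chosen with earlier results of these data known, so these counts are not independent of them. Fos had means of 8.02 ± 0.56 (SD, n = 5) in CD-vehicle, 5.44 ± 0.86 in HFD-vehicle, 4.85 ± 0.67 in CD-IMQ and 5.58 ± 0.88 in HFD-IMQ. CD-vehicle was the group that stood apart. The difference between the treatments was 3.31 (SE 0.58, adjusted p = 0.00966) for Fos, 3.36 (SE 0.42, adjusted p = 0.00124) for the matricellular Ccn1, 3.24 (SE 0.55) for the nuclear receptor Nr4a1, 3.05 (SE 0.42) for the phosphatase Dusp1, 2.72 (SE 0.50) for Egr1 and 2.51 (SE 0.39) for Zfp36, which degrades cytokine mRNAs.

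Inner root sheath genes of the growing hair led the negative side. On the hair shaft and inner root sheath list 21 of 37 genes rose with the high fat diet in vehicle skin, against 1.22% of all genes. In imiquimod skin the list's median was 0.02 with 0 called. This list too was chosen with earlier results of these data known. Krt27 had means of 5.21 ± 1.35 (SD, n = 5) in CD-vehicle, 9.15 ± 1.18 in HFD-vehicle, 3.71 ± 0.44 in CD-IMQ and 3.75 ± 0.71 in HFD-IMQ. HFD-vehicle was the high group, and both imiquimod groups were low. The difference between the treatments was -3.99 (SE 0.74, adjusted p = 0.0131) for Krt72, -3.91 (SE 0.76, adjusted p = 0.0184) for Krt27, -3.75 (SE 0.77) for Prr9, -3.53 (SE 0.78) for Krt25, -3.28 (SE 0.73) for Krt26 and -3.17 (SE 0.67) for Krt28. Among the 26 followed genes Krt16 alone passed this test, at -2.67 (SE 0.59, adjusted p = 0.0387). It rose by 3.09 with the diet in vehicle skin and differed by 0.42 in imiquimod skin.

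**Figure D5:**
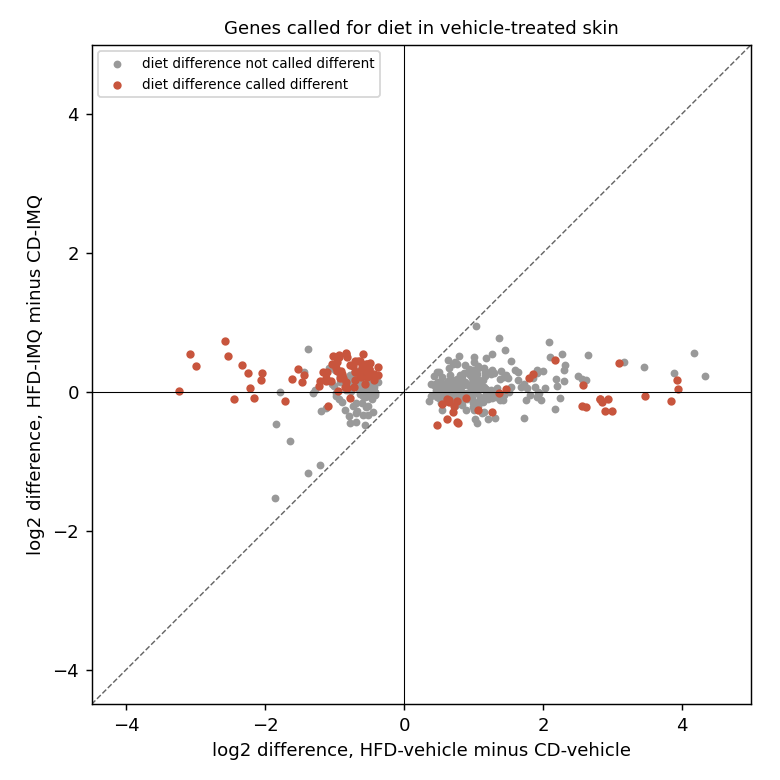
Diet difference in imiquimod-treated skin (y axis, log2) against that in vehicle-treated skin (x axis, log2) for the 483 genes called in vehicle skin. Points spread farther along the x axis than the y axis, which the choice of genes by their vehicle difference favours. The y medians were 0.05 for the genes that rose and 0.13 for those that fell in vehicle skin. Red points passed the test of the difference between the treatments, which uses the same vehicle arrays.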

How the data were processed

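The authors deposited log2 intensities made by RMA with the affy package, per the submitters' processing notes. Versions, scan batches and joint normalisation of the arrays are not stated there. Per the labels' protocols, 300 ng of Trizol-extracted RNA were labelled with the WT PLUS kit. Of 41345 features 23521 carry 1 gene symbol in the platform annotation, 1814 several and 16010 none; 23477 matched RefSeq, which changed 0 symbols. Each of 22180 genes was read from its single-symbol feature with the highest mean, and 1082 genes had several.

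Group means of all 20 arrays were fitted with limma 3.58.1 (R 4.3.3) and moderated with eBayes. Contrasts were the diet difference in imiquimod skin, that in vehicle skin and their difference, with p-values adjusted by Benjamini-Hochberg over all genes and a call at 0.05. Every printed adjusted p is limma's. No filter on dim genes was applied. The fit was tested on simulated data. Mice are the replicates. The number of arrays limits the precision: the median SE of a difference was 0.14 log2 units.

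Lists (37, with 711 genes measured) and members were chosen with earlier results of these data known. Named genes are the called genes with the largest changes, or, where under 12 in a direction, those with the smallest p, without predicted, small-RNA, olfactory, vomeronasal and receptor-segment genes; the smallest-p member of each list; 26 followed genes; and the 6 largest called treatment differences each way. Promoters are RefSeq's (GRCm38.p6). Alternatives were the imiquimod arrays alone, the replicate number as a block, a minimum mean of 4, quantile normalization once more, centring, trend and robust moderation, array weights, other feature rules, a minimum difference of 1 and each array left out, with 2 added after seeing the data. Replicate numbers did not pair the arrays: residuals of the 5 same-number pairs correlated between -0.141 and 0.037.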

Additional observations from a re-analysis of the deposited data

Results flagged for a closer look

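Of 174 groups of 5 arrays checked (named genes, followed genes and list means in each imiquimod group), 3 had an extreme array by Dixon's test, where chance gives about 1 in 20. CD-IMQ replicate 2 was highest for the mean of the fatty acid oxidation list, at 5.95. CD-IMQ replicate 5 was lowest for the sebaceous gland list, at 5.92, and HFD-IMQ replicate 5 for the mammary epithelium list, at 2.64.

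The diet difference was called different between imiquimod and vehicle skin (limma, adjusted p below 0.05) for 21 of the genes named here. The terms (log2) were 3.36 for Ccn1, 3.31 for Fos, 3.24 for Nr4a1, 3.05 for Dusp1, 2.72 for Egr1 and 2.51 for Zfp36. They were -3.99 for Krt72, -3.91 for Krt27, -3.75 for Prr9, -3.53 for Krt25, -3.28 for Krt26, -3.17 for Krt28 and -2.67 for Krt16. For genes with the smallest p in imiquimod skin they were 1.68 for C1qtnf3, 0.91 for Tmem38b, 1.0 for Atp8b1, 0.81 for Ppp1r21 and -0.80 for Usp17ld. For members of the gene lists they were -1.72 for Sprr1b, -1.21 for Plk1 and 1.46 for Vegfa.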

How the results depend on the processing

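At an unadjusted p below 0.05 the imiquimod arrays alone gave 1235 higher and 958 lower, and array weights 1332 and 979. Counts of genes higher or lower in HFD-IMQ than CD-IMQ, 0 and 0, stayed 0 with the imiquimod arrays alone, array weights, every single-symbol feature and a minimum difference of 1. Quantile normalization once more gave 3 higher and 2 lower. A minimum mean of 4, centring, trend and robust moderation and the mean of a gene's features gave 1 lower each, Usp17ld. Leaving out 1 array gave 0 to 13 higher and 0 to 7 lower, with 0 in all for 7 of the 20 arrays. The adipocyte covariate gave 5 higher and 12 lower, and leaving out the arrays high in Ucp1 gave 2 higher.

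Genes called for the difference between the treatments (147) numbered 308 with a minimum mean of 4, 80 with a minimum difference of 1 and 57 to 198 with 1 array left out: 57 without CD-IMQ replicate 4, 60 without HFD-vehicle 1, 61 without HFD-IMQ 2, 75 without CD-IMQ 5, 83 without CD-vehicle 3, 94 without HFD-IMQ 5 and 95 without HFD-IMQ 1. HFD-vehicle against CD-vehicle (483) gave 170 with a minimum difference of 1 and 231 to 574 with 1 array left out: 231 without CD-vehicle 3, 260 without HFD-vehicle 1, 305 without HFD-vehicle 3 and 312 without CD-vehicle 5. With the replicate block, which the pairing check does not ask for, 0 genes were higher and 0 lower in HFD-IMQ, 124 were called for the difference between the treatments and 361 in vehicle skin. Without HFD-IMQ replicate 4 the neutrophil median was 0.01 in place of 0.28. Of 2421 values of 82 named genes over the alternatives 41 had the other sign, in 7 genes near 0 (Il6, Mki67, Il17a, Il23a, Cxcl1, Adipoq and Il1f6), and 42 values of 15 genes passed the test. The cause of these changes was not tested.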

Other observations

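The 16 clock genes had a median of 0.04, with 10 of them higher, 6 lower and 0 called. At an unadjusted p below 0.05, Clock (0.31) and Cry1 (0.31) were higher and Bhlhe41, Ciart and Dbp lower. Bhlhe41, a repressor of the clock, lay below every CD-IMQ array on all 5 HFD-IMQ arrays, with a difference of -0.76 (SE 0.21, limma adjusted p = 0.270). Ciart differed by -0.39 (SE 0.12) and the output factor Dbp by -0.35 (SE 0.14). Dbp fell by 0.79 with the diet in vehicle skin (adjusted p = 0.00242), and Ciart differed by -0.39 there too without passing (adjusted p = 0.0830). In vehicle skin 5 clock genes fell (0.956% of all genes) and 1 rose (1.22%), and the list's median was -0.45. Others called there were near 0 in imiquimod skin: Cry2 (-0.80 in vehicle skin, 0.02 in imiquimod skin), Per3 (-0.50, 0.11) and Arntl (0.62, 0.05). The difference between the treatments passed the test for 1 clock gene.

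The beta-defensin Defb8 had the difference farthest from 0 among the listed genes. It read 10.49, 6.80, 9.31, 8.66 and 5.72 in CD-IMQ and 1.72, 5.26, 3.18, 7.84 and 4.45 in HFD-IMQ. The groups overlapped, and the difference was -3.71 (SE 1.04, adjusted p = 0.277). In vehicle skin it was 0.02 (SE 1.04). Defb3, the beta-defensin of inflamed epidermis, differed by 0.89 (SE 0.40). Tmprss11b, named because it was called without HFD-IMQ replicate 4, read 1.90, 2.39, 2.10, 1.98 and 2.70 in CD-IMQ and 4.06, 2.56, 4.22, 1.60 and 4.63 in HFD-IMQ. Replicates 1, 3 and 5 of HFD-IMQ were high and replicates 2 and 4 were not. These 3 replicates were also the highest of the group for the mean of the SPRR and LCE3 list, at 6.24, 6.21 and 6.53, against 5.69 and 5.64 on replicates 2 and 4.

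Skeletal muscle genes, which mark the layer under the abdominal skin, had 20 of 24 members lower and a median of -0.34, with Pvalb, a calcium buffer of fast fibres, at -0.85 (SE 0.37). Their mean level ranged from 6.40 to 7.46 in CD-IMQ and from 5.62 to 7.09 in HFD-IMQ, and the median was -0.08 without HFD-IMQ replicate 3 and -0.53 without HFD-IMQ replicate 2. Slc7a11, the cystine transporter, had the smallest p on the oxidative stress list, at 0.77 (SE 0.25, adjusted p = 0.339). Smallest-p members of the other lists were Shh (0.41), Fgf18 (-0.32), Mlana (0.42), Gldn (-0.32), Slc4a1 (0.39), Nr4a2 (-0.35), Cox5a (0.22), Krt19 (-0.49) and Plin4 (0.77), none of them called.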
